A study of Homo sapiens with 10 samples.

Results

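The regions described here are those that the deposited annotation of an H3K27ac ChIP-seq experiment assigns to the genes of the extracellular matrix machinery: collagens, matrix metalloproteinases (MMPs), their tissue inhibitors (TIMPs), ADAMTS proteases and lysyl oxidases. H3K27ac is the acetylation of histone H3 at lysine 27, a mark of active promoters and enhancers. Members were taken by gene symbol alone, without use of any measured value, and amount to 407 of the 67387 annotated regions of 502 bp, out of 169637 regions counted in all. They carry 60 of the 93 gene symbols of these families in a RefSeq gene table, and the other 33 symbols had no annotated region and were not analysed here, among them COL3A1, MMP1, ADAMTS1 and ADAMTS5. By family there were 205 regions of 30 collagen genes, 61 of 12 MMP genes, 24 of 3 TIMP genes, 76 of 11 ADAMTS genes and 41 of 4 lysyl oxidase genes. All 407 passed the filter on low counts. By the distance to a transcription start that the annotation gives, 71 were promoter regions, within 1 kb, 32 were promoter flanks, beyond 1 kb and within 3 kb, and 304 were distal.

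The cells were H1975, an established human non-small cell lung cancer line with mutant EGFR, so every statement is about 1 line. Drug-tolerant persisters (osimertinib DTP) had been cultured with osimertinib, a drug that blocks mutant EGFR, for 24 days at 500 nM. A second persister group (osimertinib DTP + AZD5153) had 21 days of osimertinib at that dose and then 3 days of the compound AZD5153 at 150 nM; whether osimertinib was kept on during those days is not said. Control cells (DMSO) had 21 days without drug and then 3 days of DMSO. Each group has 3 libraries from biological triplicates, and 1 pooled library of input chromatin was made.

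Collagens are triple-helical proteins that make up fibrils, basement membranes and other networks. Their precursors are trimmed by procollagen proteinases, some of them ADAMTS enzymes, and lysyl oxidases then cross-link the fibres. MMPs and other ADAMTS proteases cut collagen and proteoglycan, and TIMPs block the MMPs. In carcinomas most interstitial matrix is made by stromal fibroblasts, while tumour cells contribute basement membrane, membrane-bound collagens and proteases.

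Total counts were 6263443 to 10463351 per H3K27ac library and 1870885 for the input, and the highest count of any member in a library was 671, and many values rest on few counts. One library stood apart: AZD5153 replicate 3 had the lowest total and 9139 regions without a read, and its Spearman correlations with the other replicates of its group were 0.43 and 0.354, against 0.818 to 0.898 for all other pairs within a group. It is called the outlying library below, and many counts and called regions of that group are given with and without it. Where no second value follows, only the fit with it is given. The fit without it called more regions of every kind, 26.8% of all regions in persisters against DMSO and 35.5% in the AZD5153 group, beside 10.7% and 18.1% with it. Promoters of all 6 epithelial marker genes carried the mark. For EPCAM the means were 27.7, 41.2 and 47.3 CPM (counts scaled to the TMM-adjusted library size) in DMSO, persister and AZD5153 libraries. KRT8 stood at 62.4, 69.7 and 77.8, KRT18 at 8.96, 13.6 and 11.6, and KRT19 at 22.6, 38.6 and 28.2. CDH1, at 16.2, 17.8 and 13.3, and CLDN4, at 54, 60.2 and 44.1, ended below DMSO in the AZD5153 group. Of 5 fibroblast markers, DCN, LUM and THY1 had no promoter region, PDGFRA stood at 13.5, 18.4 and 21.6, and PDGFRB at 2.87, 19.1 and 29.6. None of 4 blood cell markers had a promoter region. Markers were looked up among the annotated regions alone, so a missing one may lie among the counted regions without annotation. The part that these marker levels play in the results was not tested. As the chromatin came from whole cultures, more acetylation per cell and more cells with acetylation cannot be told apart.

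To show what kind of sequence the promoter results concern, the 250 bases upstream of 4 RefSeq starts are given (GRCh38.p14, 5′ to 3′ on the gene's strand). ADAMTS14 (chr10:70672256-70672505, plus strand), ADAMTS10 (chr19:8610716-8610965, minus strand) and COL12A1 (chr6:75206054-75206303, minus strand) are starts whose promoter regions were called in at least 1 comparison, and COL21A1 (chr6:56091663-56091912, minus strand) is an internal start 302.6 kb into a gene whose upstream intron lost its mark. Capitals mark matches, on either strand, to an AP-1 site (TGANTCA), a TEAD site (GGAATG) or a TATA box (TATAAA), and these matches do not overlap.
ADAMTS14: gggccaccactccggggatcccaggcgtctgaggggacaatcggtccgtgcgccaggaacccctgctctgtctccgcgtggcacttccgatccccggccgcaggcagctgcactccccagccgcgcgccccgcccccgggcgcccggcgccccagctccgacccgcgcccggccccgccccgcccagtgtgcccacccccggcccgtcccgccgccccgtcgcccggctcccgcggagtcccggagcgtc
COL12A1: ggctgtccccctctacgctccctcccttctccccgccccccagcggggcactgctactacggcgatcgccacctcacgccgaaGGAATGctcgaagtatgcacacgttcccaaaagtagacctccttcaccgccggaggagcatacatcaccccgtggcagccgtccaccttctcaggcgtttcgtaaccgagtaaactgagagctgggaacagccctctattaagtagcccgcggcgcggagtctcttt
ADAMTS10: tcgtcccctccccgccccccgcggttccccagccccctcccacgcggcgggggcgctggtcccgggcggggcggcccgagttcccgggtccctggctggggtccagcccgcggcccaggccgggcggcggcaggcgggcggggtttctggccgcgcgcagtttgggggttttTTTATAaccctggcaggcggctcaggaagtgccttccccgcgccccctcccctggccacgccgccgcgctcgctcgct
COL21A1: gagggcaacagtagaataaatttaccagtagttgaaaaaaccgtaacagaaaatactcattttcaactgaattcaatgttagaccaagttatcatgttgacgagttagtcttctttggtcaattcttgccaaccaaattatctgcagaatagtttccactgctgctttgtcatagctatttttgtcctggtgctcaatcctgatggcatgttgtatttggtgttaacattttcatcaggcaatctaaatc
The ADAMTS14, ADAMTS10 and COL12A1 stretches are rich in G and C, whereas that of COL21A1 is not. COL12A1 holds 1 TEAD match 167 bases before the start, and ADAMTS10 holds 1 TATA box match, read on the other strand, 78 bases before it. ADAMTS14 and COL21A1 hold no match to these letters. Windows of 300 bases around RefSeq starts were found for 38 of the member genes, as 47 windows. Among the 38 genes, 2 held an AP-1 match, 2 a TEAD match and 9 a TATA box match. Counted by window instead of by gene, 7.71%, 14% and 11.5% of all 35116 windows in the table did. A gene with several windows counts if any of them matches, so the gene counts and window shares are not like measures. A match describes letters only.

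Against DMSO, persisters gained H3K27ac at more of the matrix gene regions than they lost it. In the edgeR quasi-likelihood fit over 157919 regions, with Benjamini-Hochberg adjustment and a threshold of 0.05, 58 of 407 members were higher and 28 lower. As shares the members stood at 14.3% higher and 6.88% lower. Over all regions tested 5.58% were higher and 5.13% lower, and over the annotated regions, from which the members come, 6.98% and 7.22%. Only the gains thus exceeded the share of the annotated regions. The median log2 fold change of the members was 0.52, beside 0.15 for all regions and 0.18 for the annotated ones. Because neighbouring regions of 1 enhancer are not independent, members within 1 kb were also joined: the gains then fell into 34 loci of 21 genes and the losses into 20 loci of 15 genes. Without AZD5153 replicate 3, which enters only the shared estimate of spread here, 120 members were higher and 68 lower, while the shares of all regions rose to 14.2% and 12.7%. The 9 fits that each left out 1 library (leave-one-out fits) showed that the count rests heavily on single control libraries, with 9 higher and 1 lower without DMSO replicate 2, and 15 and 7 without DMSO replicate 3. Without DTP replicate 2 it was 29 and 7, without DTP replicate 3 it was 37 and 4, without DTP replicate 1 it was 47 and 9, and without DMSO replicate 1 it was 43 and 15.

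Against DMSO, the AZD5153 group differed at more of the same members, with 104 higher and 53 lower, a median of 0.80 and gains in 60 loci of 32 genes. As shares these are 25.6% and 13%. Over all regions 9.05% were higher and 9.01% lower, with a median of 0.23, and over the annotated regions 10.7% and 11.1%. Without AZD5153 replicate 3 the members called were 136 and 72, beside 18.2% and 17.4% of all regions. Without DMSO replicate 2 they were 45 and 19, and without DMSO replicate 3 they were 43 and 27. Without AZD5153 replicate 1, 31 members were lower. Both comparisons use the same DMSO libraries, so their values are set side by side and their likeness is not a result.

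Between AZD5153-treated and untreated persisters no member was called: 0 higher and 0 lower, where 0% of all regions were called in either direction. An unadjusted p under 0.05 was found for 29 of the 407 members and for 7011 of all regions tested. The median change of the members was 0.16. Without AZD5153 replicate 3 the fit called 103 regions higher and 96 lower, none of them a member. DESeq2, run as another tool, called 1 member, a region 36.8 kb upstream of MMP12, higher at an adjusted p of 0.028.

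**Figure D1:**
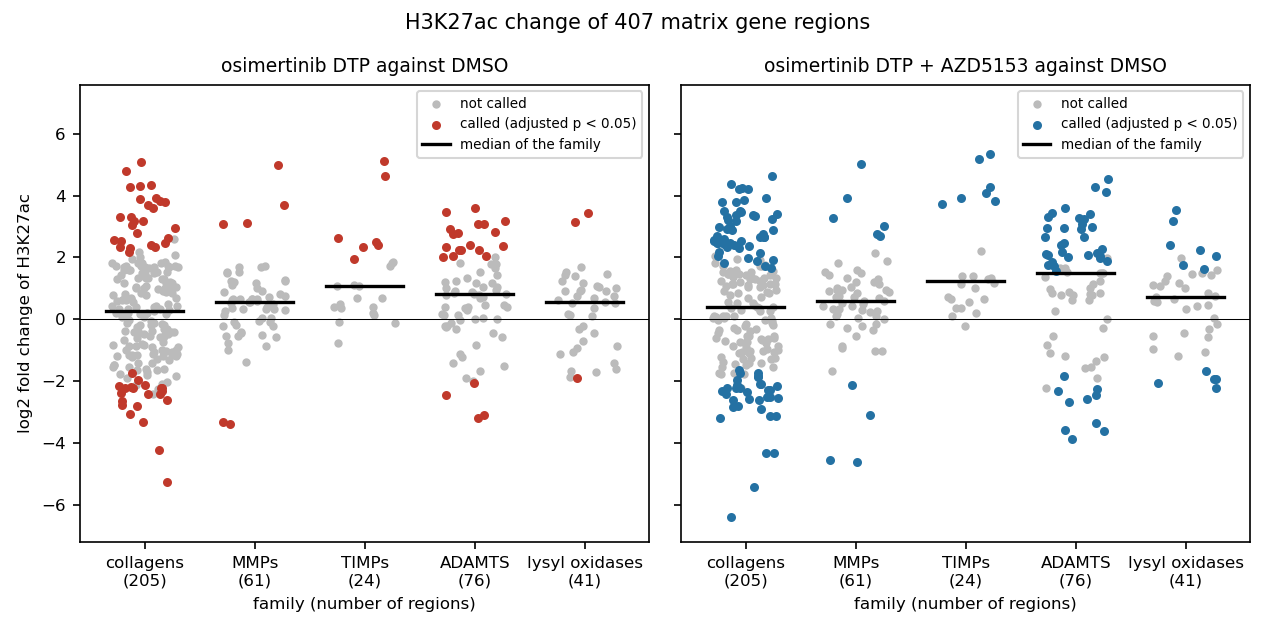
Log2 fold change of H3K27ac (vertical axis) for each of the 407 regions, by family (horizontal axis), for osimertinib DTP against DMSO and for osimertinib DTP + AZD5153 against DMSO; each point is 1 region, coloured where its adjusted p was under 0.05, and the bar is the family median. ADAMTS regions sit highest among the larger families, with medians of 0.82 and 1.49, and collagen regions have medians of 0.27 and 0.41 and reach furthest below 0.

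By position, with all libraries in the fit, promoters were called less often than distal regions in absolute share, as they were over the whole table. Without the outlying library this order was lost for the members in persisters. There 46.5% of their promoter regions were called, beside the 83 higher and 55 lower of 304 distal ones. Of all annotated promoters 14.3% were then called, and of all annotated distal regions 42.7%. Of 71 promoter regions 8 were higher and 2 lower in persisters, against 2.78% and 1.85% of all annotated promoters. Their median was 0.90, beside 0.35 for all annotated promoters. In the AZD5153 group 13 were higher and 3 lower, against 5.33% and 3.18%, with a median of 1.23 beside 0.42. That promoter median leaned on the library that stood apart: without AZD5153 replicate 3 it was 0.41, with 17 higher and 10 lower, beside a median of -0.01 with 8.35% higher and 9.47% lower for all annotated promoters. In persisters 28 were then higher and 5 lower, against 9.14% and 5.12%. Of 304 distal regions 46 were higher and 23 lower in persisters, against 9.79% and 10.8% of all distal regions, so only the share of gains exceeded that of the whole table. In the AZD5153 group 83 were higher and 45 lower, against 14.3% and 16.1%. The distal medians were 0.37 and 0.71, beside -0.06 and 0.03. The distal counts without the outlying library were 83 and 55 in persisters and 108 and 57 in the AZD5153 group. Of 32 flanks, 4 were higher and 3 lower in persisters, against 6.9% and 7.35% of all annotated flanks, and 8 and 5 in the AZD5153 group, against 10.6% and 12.7%. They were 9 and 8, then 11 and 5 without the outlying library.

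The annotation's promoter class is wider than the gene starts of RefSeq. Within 1 kb of a RefSeq start lay 43 of the 71 promoter regions, in 23 genes, and the other 28, in 13 genes, lay near starts in the annotation that the RefSeq table does not hold. The 43 had 7 higher and 0 lower in persisters, with a median of 1.07, and 6 and 2 in the AZD5153 group. The 28 had 1 and 2, and 7 and 1. Of all 407 members 249 lay inside their gene, 116 upstream and 42 downstream. Those inside had 40 higher and 18 lower in persisters. Distances below are from the gene's 5′ end in RefSeq, and coordinates are those of hg38.

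**Figure D2:**
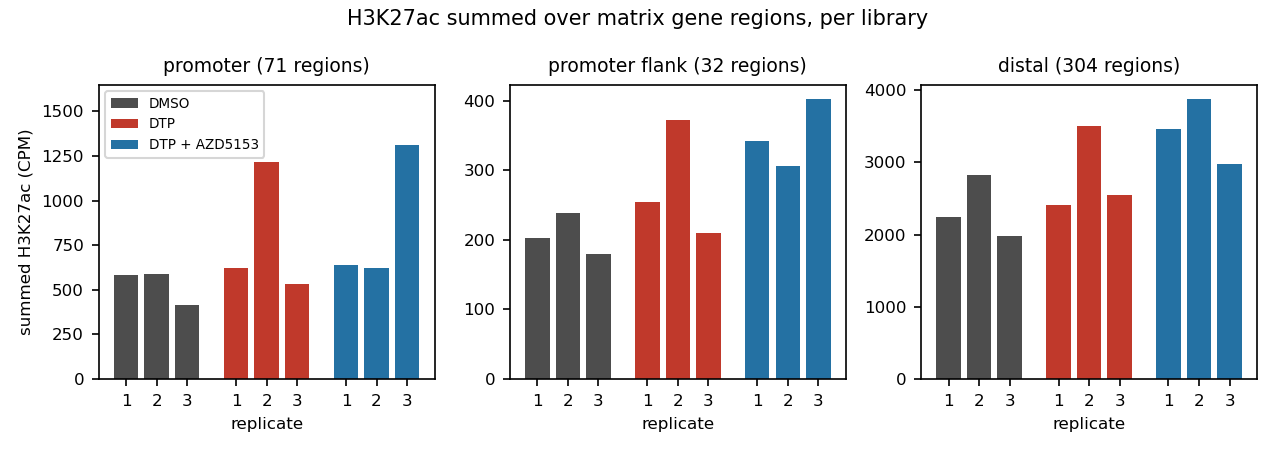
Summed H3K27ac (vertical axis, CPM) over the 71 promoter, 32 flank and 304 distal regions in each library, by group and replicate (horizontal axis); each bar is 1 library and colours mark the groups. Promoter sums of DTP replicate 2 and AZD5153 replicate 3 stand far above those of their groups' other libraries, at 1214 and 1310, whereas the distal sum of AZD5153 replicate 3 is the lowest of its group.

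Levels per library are the CPM of a region, given for replicates 1, 2 and 3 in that order. The promoter sums were 585, 586 and 415 in DMSO, 620, 1214 and 530 in persisters, and 639, 622 and 1310 in the AZD5153 group. Thus 1 library of each drug group was far above its fellows at promoters, and the lowest persister sum, 530, lay inside the DMSO range. The distal sums were 2239, 2831 and 1981, then 2414, 3498 and 2543, then 3465, 3884 and 2975, so that only the AZD5153 group lay wholly above DMSO. No test was run on these sums.

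ADAMTS regions were called more often than the members as a whole. Of 76 regions 18 were higher and 4 lower in persisters, and 32 and 10 in the AZD5153 group, with medians of 0.82 and 1.49. These are 23.7% and 5.26%, then 42.1% and 13.2%, against 6.98% and 7.22%, then 10.7% and 11.1%, of the annotated regions. The counts without the outlying library were 27 and 10, then 44 and 13. The procollagen N-proteinases ADAMTS2, ADAMTS3 and ADAMTS14 cut the amino-terminal propeptide from fibrillar procollagen, and 11 of their 25 regions were higher and 0 lower in persisters, and 18 higher and 1 lower in the AZD5153 group, with medians of 1.82 and 2.66. Without AZD5153 replicate 3 these were 17 and 2, then 22 and 2. The proteoglycan-cleaving members had 14 regions, of which 2 and 8 were higher and none lower. The remaining 37 regions of other ADAMTS genes had 5 higher and 4 lower, then 6 and 9. Without the outlying library the proteoglycan-cleaving regions had 4 and then 12 higher and 0 lower. The other ADAMTS genes then had 6 higher and 8 lower in persisters, and 10 and 11 in the AZD5153 group.

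ADAMTS14 was marked at its start and just inside it. The flank 1.9 kb into the gene (chr10:70674179-70674680) measured 2.61, 1.54 and 1.29 in DMSO, 22.8, 29.2 and 14.1 in persisters, and 35.2, 34.5 and 38.1 in the AZD5153 group. Both drug groups lay wholly above DMSO, and the 3 AZD5153 libraries, replicate 3 included, lay together. The log2 fold changes were 3.59 ± 0.58 (SE; adjusted p = 0.00336) and 4.29 ± 0.59 (adjusted p = 0.00114, change of 4.24 without the outlying library), and the call in persisters was kept whichever single library was left out. The promoter region beside the ADAMTS14 sequence shown above read 2.07, 0.717 and 0.995, then 8.53, 18.2 and 5.59, then 7.85, 7.04 and 31.8. It was higher by 3.07 ± 0.74 (adjusted p = 0.016) and 3.59 ± 0.76 (adjusted p = 0.00508), the latter 2.53 without AZD5153 replicate 3. A distal region 22.5 kb upstream moved the other way, at -1.52 (adjusted p = 0.114) in persisters and -1.83 ± 0.62 (adjusted p = 0.046, change of -1.44 without the outlying library) in the AZD5153 group, but that call was kept in 2 of 9 leave-one-out fits, with an adjusted p of 0.157 without DMSO replicate 2.

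ADAMTS2 gained along its introns, with 4 of 11 regions higher in persisters (8 without the outlying library) and 10 of 11 in the AZD5153 group. Its intronic region 74.7 kb from the start held 2.16, 0.41 and 1.09 in DMSO, 8.72, 12.7 and 6.89 in persisters, and 12.7, 5.31 and 22.2 in the AZD5153 group, with no overlap of either drug group with DMSO. The changes were 2.92 ± 0.70 (adjusted p = 0.0149) and 3.43 ± 0.71 (adjusted p = 0.00458, change of 2.85 without the outlying library), the first kept in 6 of 9 leave-one-out fits, with an adjusted p of 0.106 without DMSO replicate 2. Its strongest called region, 80 kb into the gene, stood at 11.2, 4.51 and 2.69, then 23.7, 53.6 and 10.3, which overlap. That gain of 2.25 ± 0.69 (adjusted p = 0.046) was not called with a replicate block (adjusted p = 0.0959). ADAMTS3, measured 193.7 kb into the gene, read 0.899, 0.717 and 0.597, then 6.16, 6.2 and 3.3, then 13.1, 9.46 and 1.15. The third AZD5153 library was the low one here. The gain in persisters was 2.79 ± 0.74 (adjusted p = 0.0246), kept in 3 of 9 leave-one-out fits, with an adjusted p of 0.125 without DMSO replicate 3, and that in the AZD5153 group was 3.41 ± 0.75 (adjusted p = 0.00642, change of 3.90 without the outlying library).

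ADAMTS10, a protease tied to microfibrils, had all 5 of its regions higher in persisters and 4 of 5 in the AZD5153 group. The largest change was 20.6 kb upstream (chr19:8631074-8631575), at 0.629, 0.307 and 0.796 in DMSO, 4.74, 12.1 and 3.1 in persisters, and 13.9, 10.4 and 17.4 in the AZD5153 group. These are gains of 3.48 ± 0.68 (adjusted p = 0.00637) and 4.55 ± 0.71 (adjusted p = 0.0014, change of 4.35 without the outlying library), with no overlap with DMSO. The first was kept in 8 of 9 leave-one-out fits, with an adjusted p of 0.0653 without DMSO replicate 2. Both promoter regions next to the ADAMTS10 sequence shown above were higher in persisters. The one at the start itself read 1.17, 1.33 and 0.796, then 4.27, 5.37 and 3.89, a gain of 2.02 ± 0.61 (adjusted p = 0.0408). The one 1.2 kb inside gained 2.75 ± 0.70 (adjusted p = 0.0199), but not past the threshold with a replicate block (adjusted p = 0.0519).

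ADAMTS9, a protease that cuts versican and other proteoglycans, was the other ADAMTS gene named for a promoter gain. That region (chr3:64688086-64688587, 86 bp from the RefSeq start) read 5.93, 3.28 and 1.99 in DMSO, 8.34, 33.7 and 15.7 in persisters, and 12.8, 15.3 and 26.6 in the AZD5153 group. Every drug-treated library was above every DMSO library. The gains were 2.36 ± 0.65 (adjusted p = 0.0281; 0.0697 with a replicate block) and 2.28 ± 0.65 (adjusted p = 0.0221, change of 1.90 without the outlying library), and without DMSO replicate 3 neither was called, at adjusted p values of 0.163 and 0.133. ADAMTS15, also a proteoglycan-cleaving protease, had 0 of 9 regions called in persisters and 7 of 9 higher in the AZD5153 group, with medians of 0.81 and 2.03. Its strongest called region, 30.6 kb from the start, went from 18.6, 10.8 and 7.66 to 31.2, 34 and 27.4 and to 59, 64.5 and 34.7. Persister libraries thus lay above DMSO there too, with a change of 1.32 ± 0.51 that missed the threshold (adjusted p = 0.107), and no ADAMTS15 region was called between the drug groups.

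Besides the ADAMTS14 region above, ADAMTS losses fell in ADAMTS6 and ADAMTS17. In ADAMTS6 an exonic region 272.1 kb from the 5′ end read 10.9, 20.1 and 9.85 in DMSO, 3.22, 4.82 and 1.7 in persisters, and 0.894, 1.38 and 0.383 in the AZD5153 group. The 3 groups did not overlap. It fell by 2.07 ± 0.60 on the log2 scale in persisters (adjusted p = 0.0357) and by 3.87 ± 0.67 in the AZD5153 group (adjusted p = 0.00195, change of -3.58 without the outlying library). The first call was kept in 3 of 9 leave-one-out fits, with an adjusted p of 0.216 without DMSO replicate 2. A further ADAMTS6 region, 309 kb in, fell by 3.20 ± 0.73 (adjusted p = 0.0121) and 3.63 ± 0.77 (adjusted p = 0.0052, change of -3.45 without the outlying library), the first kept in 5 of 9 leave-one-out fits, with an adjusted p of 0.103 without DMSO replicate 2. ADAMTS17, 99.9 kb into the gene, went from 7.55, 12.9 and 8.96 to 1.61, 1.51 and 0.3 and to 1.29, 0.461 and 0.575, with changes of -3.10 ± 0.67 (adjusted p = 0.00977) and -3.60 ± 0.70 (adjusted p = 0.00341, change of -3.45 without the outlying library). Without DMSO replicate 2 the first had an adjusted p of 0.0749.

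**Figure D3:**
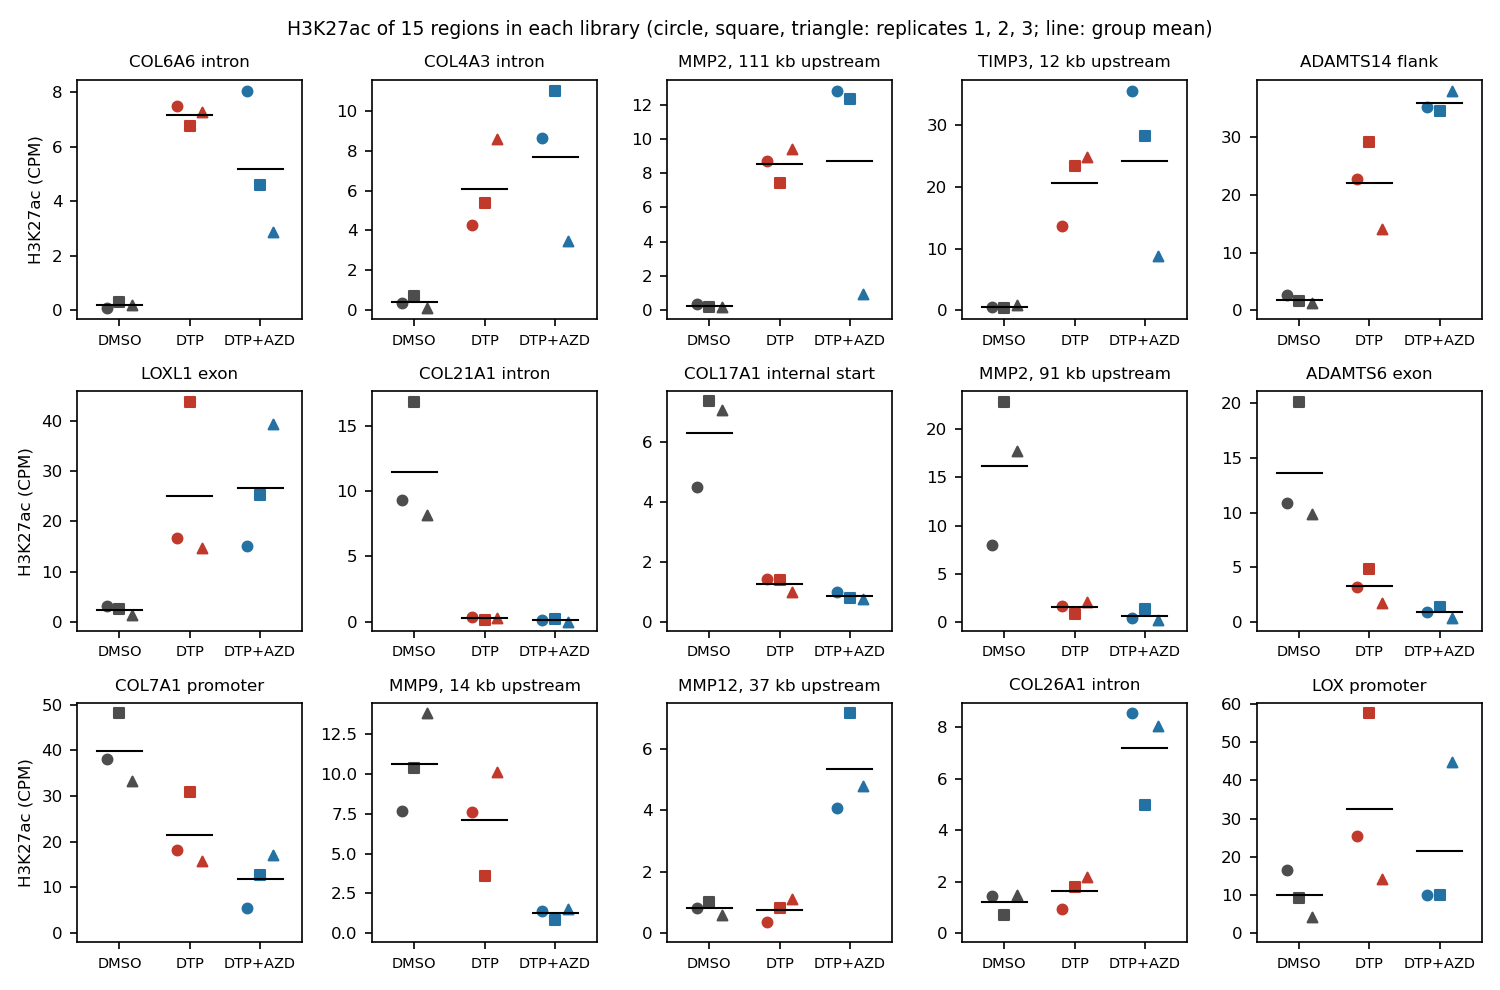
H3K27ac in CPM (vertical axes) in each library for 15 of the regions described, with DMSO, osimertinib DTP and osimertinib DTP + AZD5153 along each horizontal axis; circles, squares and triangles are replicates 1, 2 and 3, and the line is the group mean. In the gained regions of ADAMTS14, COL6A6 and TIMP3 both drug groups lie above DMSO, in the lost regions of COL21A1 and ADAMTS6 they lie below it, and AZD5153 replicate 3 departs from its group in both directions.

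The TIMPs were the family with gains and no losses: 7 of 24 regions were higher and 0 lower in each comparison with DMSO, with medians of 1.07 and 1.24. That is 29.2% higher in each, where 6.98% and 7.22%, then 10.7% and 11.1%, of the annotated regions were higher and lower. Leaving out the outlying library gave 10 and 0, then 7 and 0. TIMP3, the inhibitor that binds to the matrix, accounted for 6 of these in persisters and for all 7 in the AZD5153 group. The largest change of any TIMP region lay 12.2 kb upstream of TIMP3, in an intron of SYN3, the gene that TIMP3 is nested in (chr22:32789224-32789725). It read 0.539, 0.41 and 0.796 in DMSO, 13.7, 23.4 and 24.9 in persisters, and 35.6, 28.3 and 8.82 in the AZD5153 group. All 6 drug-treated libraries lay above all DMSO libraries. The gains were 5.12 ± 0.71 (adjusted p = 0.00273) and 5.35 ± 0.72 (adjusted p = 0.00114, change of 5.74 without the outlying library), and the persister call was kept whichever library was left out. A flank 2.2 kb inside the gene went from 1.17, 0.102 and 0.398 to 2.84, 4.13 and 2.9 and to 14.3, 8.31 and 10.9, or 2.51 ± 0.69 (adjusted p = 0.0289) and 4.27 ± 0.72 (adjusted p = 0.00177, change of 4.27 without the outlying library). The strongest TIMP3 region, 55.9 kb upstream, was not called, at 0.40 (adjusted p = 0.711) and 0.65 (adjusted p = 0.442).

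TIMP2, which also takes part in the activation of pro-MMP2 by MMP14, had 1 promoter-class region higher in persisters, at chr17:78873815-78874316. It is 51071 bp from the nearest RefSeq start. Its levels were 2.88, 2.05 and 3.09, then 10.8, 12.4 and 7.99, then 5.07, 4.84 and 11.5. That is a gain of 1.95 ± 0.56 in persisters (adjusted p = 0.0339, and 0.175 without DMSO replicate 2) and a change of 1.40 ± 0.56 in the AZD5153 group (adjusted p = 0.0903, change of 0.88 without the outlying library). The TIMP2 region nearest to the RefSeq start, 300 bp away, changed by 1.87 ± 0.76 (adjusted p = 0.122) and 2.20 ± 0.76 (adjusted p = 0.0532), the latter 0.85 without the outlying library, and the strongest TIMP2 promoter region, 815 bp from the start, by 1.07 (adjusted p = 0.316) and 1.40 (adjusted p = 0.141). Neither passed the threshold. The TIMP1 promoter changed by -0.77 (adjusted p = 0.499) and -0.22 (adjusted p = 0.852).

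Collagen regions moved both ways. Of 205, 27 were higher and 21 lower in persisters, and 52 and 34 in the AZD5153 group, with medians of 0.27 and 0.41. These are 13.2% and 10.2%, then 25.4% and 16.6%, against 6.98% and 7.22%, then 10.7% and 11.1%, of the annotated regions. Of the 205, 158 were distal, and of all annotated distal regions 9.79% and 10.8%, then 14.3% and 16.1%, were called. In persisters the share of losses was thus near that of distal regions. At their 33 promoters 1 was higher and 2 lower, then 7 and 3, against 2.78% and 1.85%, then 5.33% and 3.18%, of all annotated promoters. Without the outlying library the collagen counts were 62 and 49 in each comparison, and those of the promoters 13 and 5, then 9 and 10, so the AZD5153 group then had no excess of gains at collagen promoters. By kind of collagen, the 17 regions of transmembrane collagens, which sit in the cell surface of epithelial and other cells, had 0 higher and 7 lower in persisters and 0 higher and 9 lower in the AZD5153 group, with medians of -1.62 and -1.84. FACIT collagens, which attach to the surface of fibrils, had 5 higher and 5 lower of 38, then 15 and 5. Fibrillar collagens had 5 higher and 2 lower of 49, then 11 and 4. Basement membrane collagens had 8 higher and 2 lower of 30, then 7 and 3. COL8A1, which makes a network beneath vascular endothelium, lay with COL8A2 in a class of 11 regions with 4 higher and 0 lower, then 5 and 1. Without the outlying library the transmembrane regions had 12 and then 9 lower and 0 higher, FACIT 20 higher and 6 lower, then 18 and 8, fibrillar 14 and 9, then 11 and 6, and basement membrane 11 and 5, then 10 and 6.

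The largest gains were in introns, far from the start. In COL6A6, a chain of the beaded filament collagens (chr3:130575906-130576407, 59.4 kb from the 5′ end), levels were 0.0899, 0.307 and 0.199 in DMSO, 7.49, 6.75 and 7.29 in persisters, and 8.05, 4.61 and 2.87 in the AZD5153 group. The DMSO libraries together held only 6 counts, so the size of the fold is loosely set. The changes were 5.10 ± 0.72 (adjusted p = 0.00273) and 4.65 ± 0.72 (adjusted p = 0.00132, change of 4.93 without the outlying library). In COL4A3, a basement membrane chain (chr2:227214944-227215445), levels went from 0.36, 0.717 and 0.0995 to 4.27, 5.37 and 8.59 and to 8.64, 11 and 3.45. These gains were 3.92 ± 0.73 (adjusted p = 0.0053) and 4.26 ± 0.74 (adjusted p = 0.00201, change of 4.60 without the outlying library), and like that of COL6A6 the persister call was kept whichever library was left out.

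COL4A1, the ubiquitous basement membrane chain, gained 58.8 kb from its 5′ end (chr13:110248108-110248609), from 0.45, 0.41 and 0.498 to 5.59, 15.6 and 6.69 and to 2.28, 3.69 and 14. Its changes were 4.31 ± 0.79 (adjusted p = 0.00473) and 3.81 ± 0.78 (adjusted p = 0.00439), the latter 2.68 (adjusted p = 0.00156) without AZD5153 replicate 3, which was the highest of its group. Without DMSO replicate 2 the first had an adjusted p of 0.0531. The fibrillar collagen COL24A1 had the opposite pattern in that library. It read 0.539, 0.41 and 0.299, then 3.51, 9.91 and 13.1, then 3.08, 11 and 0.383, so that replicate 3 of the AZD5153 group fell within the DMSO range. The gains were 4.36 ± 0.92 (adjusted p = 0.00872) and 3.50 ± 0.91 (adjusted p = 0.0144, change of 4.01 without the outlying library), with adjusted p values of 0.0708 without DMSO replicate 2 for the first and 0.0788 without AZD5153 replicate 2 for the other. Upstream of COL8A1, by 75.7 kb, levels were 1.8, 1.84 and 0.0995, then 13.6, 18.9 and 20.2, then 17.5, 18.2 and 1.72. The third AZD5153 library again lay within the DMSO range, and the changes were 3.80 ± 0.87 (adjusted p = 0.0127) and 3.32 ± 0.86 (adjusted p = 0.0143, change of 3.81 without the outlying library).

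COL12A1, a FACIT collagen, gained at its start in the AZD5153 group, and the FACIT collagen COL16A1 gained away from its RefSeq start. The COL12A1 promoter whose sequence is shown above (chr6:75205629-75206130) read 8.9, 2.56 and 1.69 in DMSO, 16.1, 34.6 and 9.99 in persisters, and 28.5, 21.5 and 54.4 in the AZD5153 group. Drug-treated libraries all lay above DMSO, yet the persister change of 2.19 ± 0.69 fell just short of the threshold (adjusted p = 0.0502). The AZD5153 change was 2.98 ± 0.71 (adjusted p = 0.0096), 2.49 (adjusted p = 0.00262) without replicate 3, and was not called without DMSO replicate 2 (adjusted p = 0.0711). An intronic COL12A1 region 24.1 kb in went from 1.26, 0.307 and 0.299 to 6.16, 4.96 and 3.89 and to 17.7, 10.5 and 7.28, or 2.96 ± 0.68 (adjusted p = 0.0123; 0.0954 without DMSO replicate 2) and 4.21 ± 0.70 (adjusted p = 0.0017, change of 4.44 without the outlying library). COL16A1, 8.4 kb upstream, gained 2.39 ± 0.61 (adjusted p = 0.0203) and 2.91 ± 0.62 (adjusted p = 0.0053, change of 3.03 without the outlying library). In all 2 of its 8 regions were higher in persisters and 4 in the AZD5153 group.

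The major fibrillar collagens changed less clearly. The promoter of COL1A1, which encodes the main chain of type I collagen, read 8.99, 9.01 and 4.28, then 14.7, 44.1 and 14.6, then 9.34, 14.2 and 32.4. The changes of 1.71 (adjusted p = 0.0926) and 1.32 (adjusted p = 0.161) did not pass the test. COL1A2, the partner chain, had a region 1093 bp from the RefSeq start at 3.42, 0.922 and 0.995, then 6.07, 7.3 and 3.89, then 9.54, 1.85 and 32.4. One AZD5153 library lay inside the DMSO range and another far above the rest, and the call of 3.01 ± 0.84 (adjusted p = 0.0205) became 1.66 (adjusted p = 0.0397) without replicate 3, and it was not called without DMSO replicate 2 (adjusted p = 0.11) or with a replicate block (adjusted p = 0.0712). COL5A1 had 0 of 27 regions called in persisters (6 higher and 1 lower without the outlying library) and 5 higher in the AZD5153 group, the one 20.7 kb in by 2.77 ± 0.59 (adjusted p = 0.0051, change of 2.58 without the outlying library). COL26A1 likewise had 0 of 13 called in persisters and 7 higher in the AZD5153 group, with medians of 0.33 and 1.82.

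Losses were led by COL21A1, a FACIT collagen. The intronic region 58.5 kb from its 5′ end (chr6:56335347-56335848) read 9.35, 16.8 and 8.16 in DMSO, 0.379, 0.138 and 0.3 in persisters, and 0.0993, 0.231 and 0 in the AZD5153 group. It fell by 5.28 ± 0.73 in persisters (adjusted p = 0.00273), and this call was kept whichever library was left out. The AZD5153 libraries held 3 counts in all and were also lower (adjusted p = 0.00114), but no fold is given for so few. Within the same gene, the region over the internal start shown above was higher in the AZD5153 group, at 3.51, 6.86 and 7.07 in DMSO, 16.5, 20.2 and 25 in persisters, and 29.6, 44.4 and 3.64. That change was 2.16 ± 0.70 (adjusted p = 0.0404), and 2.66 (adjusted p = 1.71e-04) without replicate 3, whereas the change in persisters, 1.82 ± 0.69, missed the threshold (adjusted p = 0.0996).

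The transmembrane collagens with regions here were COL13A1 and COL17A1. COL17A1, the hemidesmosome collagen of basal epithelium, lost the mark 5.2 kb upstream, where levels went from 10.7, 12 and 9.95 to 2.28, 0.689 and 2.2 and to 3.28, 2.19 and 2.87. The losses were 2.63 ± 0.58 (log2; adjusted p = 0.0105) and 1.96 ± 0.57 (adjusted p = 0.0241, change of -1.99 without the outlying library), and without DMSO replicate 2 the adjusted p values were 0.0699 and 0.0921. A promoter-class region of COL17A1 at chr10:104054783-104055284, which lies 30596 bp from the nearest RefSeq start, fell by 2.31 ± 0.57 (adjusted p = 0.0169; 0.109 without DMSO replicate 2) and 2.85 ± 0.60 (adjusted p = 0.00464, change of -2.79 without the outlying library). In COL13A1, found at cell junctions and adhesions, 5 of 11 regions were lower in persisters (8 without the outlying library) and 7 of 11 in the AZD5153 group. The one 67.2 kb upstream read 9.17, 11.6 and 10.6, then 2.65, 0.964 and 2.9, then 0.894, 1.61 and 1.72, with changes of -2.24 ± 0.58 (adjusted p = 0.0208; 0.11 without DMSO replicate 2) and -2.89 ± 0.61 (adjusted p = 0.00472, change of -3.06 without the outlying library).

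COL7A1, which forms the anchoring fibrils that tie the epithelial basement membrane to the stroma beneath, had 0 higher and 1 lower of 7 regions in persisters and 0 and 2 in the AZD5153 group, and without the outlying library 3 and 7 of the 7 were lower. Its promoter region was at 38, 48.2 and 33.3 in DMSO, 18.1, 30.8 and 15.7 in persisters, and 5.56, 12.8 and 17.2 in the AZD5153 group. No drug-treated library reached the lowest DMSO value. The change of -0.89 in persisters missed the threshold (adjusted p = 0.324), and that of -1.75 ± 0.55 in the AZD5153 group passed it (adjusted p = 0.0353; -2.13 and 0.00293 without replicate 3), but was kept in only 2 of 9 leave-one-out fits, with an adjusted p of 0.155 without AZD5153 replicate 1. COL27A1, a fibrillar collagen of cartilage, fell by 2.81 ± 0.60 (adjusted p = 0.00906; 0.0774 without DMSO replicate 2) and 4.32 ± 0.69 (adjusted p = 0.00144, change of -4.89 without the outlying library) at an intronic region 71.8 kb in. COL20A1, a FACIT collagen, fell by 3.31 ± 0.73 (adjusted p = 0.0102) and 3.14 ± 0.73 (adjusted p = 0.00838, change of -3.69 without the outlying library) at a region 38.3 kb in, with adjusted p values of 0.0786 and 0.0534 without DMSO replicate 2.

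MMP regions were called at about the share of all regions in persisters, 9.84% beside 10.7%, but below the 14.2% of annotated regions. In the AZD5153 group 16.4% were called, beside 18.1% of all regions and 21.8% of annotated ones. Of the 61 MMP regions 50 were distal, and 20.6% of all annotated distal regions were called in persisters. Of 61, 4 were higher and 2 lower in persisters, and 6 and 4 in the AZD5153 group, with medians of 0.56 and 0.59, that is 6.56% and 3.28%, then 9.84% and 6.56%, against 5.58% and 5.13%, then 9.05% and 9.01%, of all regions. Without the outlying library 12 were higher and 3 lower in persisters, and 14 and 5 in the AZD5153 group. None of the 6 MMP promoter regions was called in either, and 2 were higher in persisters without the outlying library. MMP14, the membrane-bound collagenase, had a promoter at 23.3, 14.1 and 8.36, then 31.8, 75.6 and 22.2, then 24.6, 25.6 and 83. The changes of 1.50 (adjusted p = 0.14) and 1.54 (adjusted p = 0.102) did not pass the test, the latter being 0.71 without AZD5153 replicate 3. MMP24, a membrane-type protease, was higher 5.8 kb inside the gene, from 0.899, 0.717 and 0.697 to 9.01, 5.1 and 6.39 and to 8.34, 8.07 and 2.49. Its gains were 3.12 ± 0.63 (adjusted p = 0.00704; 0.0642 without DMSO replicate 2) and 3.02 ± 0.63 (adjusted p = 0.00471, change of 3.38 without the outlying library).

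MMP2, the gelatinase that degrades basement membrane collagen, had a gain and a loss close together, far upstream. At 111.4 kb upstream (chr16:55367163-55367664) levels were 0.36, 0.205 and 0.199 in DMSO, 8.72, 7.44 and 9.39 in persisters, and 12.8, 12.3 and 0.958 in the AZD5153 group. The changes were 4.98 ± 0.86 (adjusted p = 0.00383) and 5.03 ± 0.86 (adjusted p = 0.00188, change of 5.53 without the outlying library), and both calls were kept whichever library was left out. With only the libraries of both groups in the fit, the region had no call in the AZD5153 group. The DMSO levels rest on few counts, so the size of the fold is loosely set. At 91.3 kb upstream (chr16:55387281-55387782), which the annotation counts as a promoter flank, they were 8, 22.8 and 17.7, then 1.61, 0.826 and 2.1, then 0.397, 1.27 and 0.192. That region fell by 3.39 ± 0.68 (adjusted p = 0.00701; 0.0609 without DMSO replicate 2) and by 4.62 ± 0.74 (adjusted p = 0.00153, change of -4.29 without the outlying library). Neither drug group overlapped DMSO at either site. The strongest MMP2 region, 7.5 kb upstream, was not called, at -0.77 (adjusted p = 0.35) and -1.02 (adjusted p = 0.164).

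Regions of MMP9, MMP12 and MMP3 were called against DMSO in the AZD5153 group. The MMP9 region 13.8 kb upstream (MMP9 is the other gelatinase) read 7.64, 10.4 and 13.8 in DMSO, 7.58, 3.58 and 10.1 in persisters, and 1.39, 0.807 and 1.53 in the AZD5153 group. It fell by 3.10 ± 0.62 against DMSO (adjusted p = 0.00377, change of -3.26 without the outlying library), and its change against persisters of -2.52 ± 0.61 was not called (adjusted p = 0.858). The MMP12 region 36.8 kb upstream (MMP12 is the macrophage elastase) read 0.809, 1.02 and 0.597, then 0.379, 0.826 and 1.1, then 4.07, 7.15 and 4.79. The AZD5153 libraries lay above all others, with 2.70 ± 0.64 against DMSO (adjusted p = 0.00861, change of 2.76 without the outlying library; 0.0661 without DMSO replicate 3) and 2.78 ± 0.64 against persisters (adjusted p = 0.729). The stromelysin MMP3, 6.2 kb upstream, read 1.89, 2.36 and 1.59, then 3.7, 4.96 and 8.39, then 17.7, 20 and 1.72, and changed by 1.54 (adjusted p = 0.179) and 2.76 ± 0.73 (adjusted p = 0.0162, change of 3.26 without the outlying library). Without DMSO replicate 3 the latter had an adjusted p of 0.0871.

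Other regions with the smallest unadjusted p between both persister groups were 2 in COL26A1 and 1 near COL22A1. The COL26A1 region 172.6 kb inside was called against DMSO in the AZD5153 group. That call was kept in 0 of 9 leave-one-out fits, with an adjusted p of 0.172 without DMSO replicate 1. COL26A1 16.3 kb inside read 1.44, 0.717 and 1.49 in DMSO, 0.948, 1.79 and 2.2 in persisters, and 8.54, 4.96 and 8.05 in the AZD5153 group, all 3 above the rest. Its change against persisters was 2.12 ± 0.59 (adjusted p = 1), and against DMSO 2.54 ± 0.60 (adjusted p = 0.00877, change of 2.45 without the outlying library; 0.0688 without DMSO replicate 2). COL22A1, a FACIT collagen of tissue junctions, read 3.69, 5.53 and 3.98, then 2.18, 3.3 and 3.89, then 0.795, 0.461 and 0.575 at 38.2 kb upstream. Its change was -2.32 ± 0.62 against persisters, not called, and -2.81 ± 0.62 against DMSO (adjusted p = 0.00639, change of -2.78 without the outlying library).

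Lysyl oxidases had 2 of 41 regions higher and 1 lower in persisters, and 7 and 5 in the AZD5153 group, with medians of 0.55 and 0.71. In persisters these are 4.88% and 2.44%, below the 5.58% and 5.13% of all regions, and in the AZD5153 group 17.1% and 12.2%, beside 9.05% and 9.01%. Of the annotated regions 6.98% were higher and 7.22% lower in persisters, and 10.7% and 11.1% in the AZD5153 group. Without the outlying library the counts were 9 and 6, then 9 and 5. LOXL1, which cross-links elastin, had the largest gain, over an exon 15.3 kb in (chr15:73941560-73942061). It read 3.06, 2.46 and 1.29, then 16.7, 43.8 and 14.7, then 15.1, 25.3 and 39.5, with no overlap with DMSO. The changes were 3.45 ± 0.65 (adjusted p = 0.0055; 0.0558 without DMSO replicate 2) and 3.54 ± 0.66 (adjusted p = 0.00268, change of 3.13 without the outlying library). A LOXL1 region 30.2 kb from the 5′ end, downstream of the gene, changed by -1.14 (adjusted p = 0.241) and -2.21 ± 0.63 (adjusted p = 0.0224, change of -2.56 without the outlying library; 0.102 without DMSO replicate 2).

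LOX, the founding collagen cross-linking enzyme, had a promoter at 16.6, 9.32 and 4.18, then 25.4, 57.6 and 14.3, then 10.1, 10 and 44.7. It was not called, at 1.69 ± 0.72 (adjusted p = 0.141) and 1.10 (adjusted p = 0.31), the latter resting on AZD5153 replicate 3, without which no change was left (adjusted p = 0.996). At 20.7 kb upstream LOX fell by 1.90 ± 0.56 in persisters (adjusted p = 0.0382; 0.225 without DMSO replicate 2). LOXL2, a cross-linking enzyme with a collagen IV substrate, had a promoter region 15 bp from its RefSeq start at 11.5, 12.6 and 10.4, then 10.9, 46 and 7.59, then 16.3, 13.3 and 63.1, where 1 library of each drug group was high and the change was not called (0.90 and 1.42). Promoter-class LOXL2 regions 76166 bp and 75443 bp from a RefSeq start were higher in the AZD5153 group. They gained 2.41 ± 0.59 (adjusted p = 0.0101; 0.0787 without DMSO replicate 2) and 2.04 ± 0.69 (adjusted p = 0.0469). In persisters their changes of 1.46 (adjusted p = 0.111) and 1.41 (adjusted p = 0.198) were not called. A region 60.6 kb inside LOXL2 read 11.8, 7.88 and 8.46, then 18.9, 39.4 and 17, then 39.5, 35.6 and 58.6, with 1.42 ± 0.53 (adjusted p = 0.0916) and 2.25 ± 0.54 (adjusted p = 0.0095, change of 1.99 without the outlying library). At 6.2 kb upstream LOXL2 changed by -1.86 (adjusted p = 0.0543) and -2.06 ± 0.61 (adjusted p = 0.0262, change of -1.70 without the outlying library; 0.135 without DMSO replicate 2).

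Gains and losses thus occurred within single genes. Of 44 genes with a called region in the AZD5153 group, 10 had both a higher and a lower one, and of 33 in persisters 3 did. The same count was not made over all annotated genes, so whether matrix genes differ from others in it is not known. A gene with many regions has more room for both, and the 10 had from 6 regions, as in MMP2, to 23, in LOXL2. COL15A1, a multiplexin of basement membranes, shows both directions within its introns. The region 87.1 kb in (chr9:99030794-99031295) rose from 1.44, 0.512 and 0.995 to 20.4, 22.6 and 15.3 and to 10.8, 12.8 and 6.71, by 4.28 ± 0.63 (adjusted p = 0.00273) and 3.34 ± 0.61 (adjusted p = 0.00237, change of 3.55 without the outlying library). The region 107.1 kb in (chr9:99050744-99051245) fell from 18.1, 34.5 and 23 to 6.64, 5.92 and 4.39 and to 3.68, 3.35 and 0.958, by 2.15 ± 0.59 (adjusted p = 0.0264; 0.162 without DMSO replicate 2) and 3.21 ± 0.62 (adjusted p = 0.00308, change of -2.85 without the outlying library). DMSO and drug-treated libraries did not overlap at either. COL5A2, a fibrillar chain, likewise had 4 higher regions in each comparison, and 2 lower ones in the AZD5153 group.

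**Figure D4:**
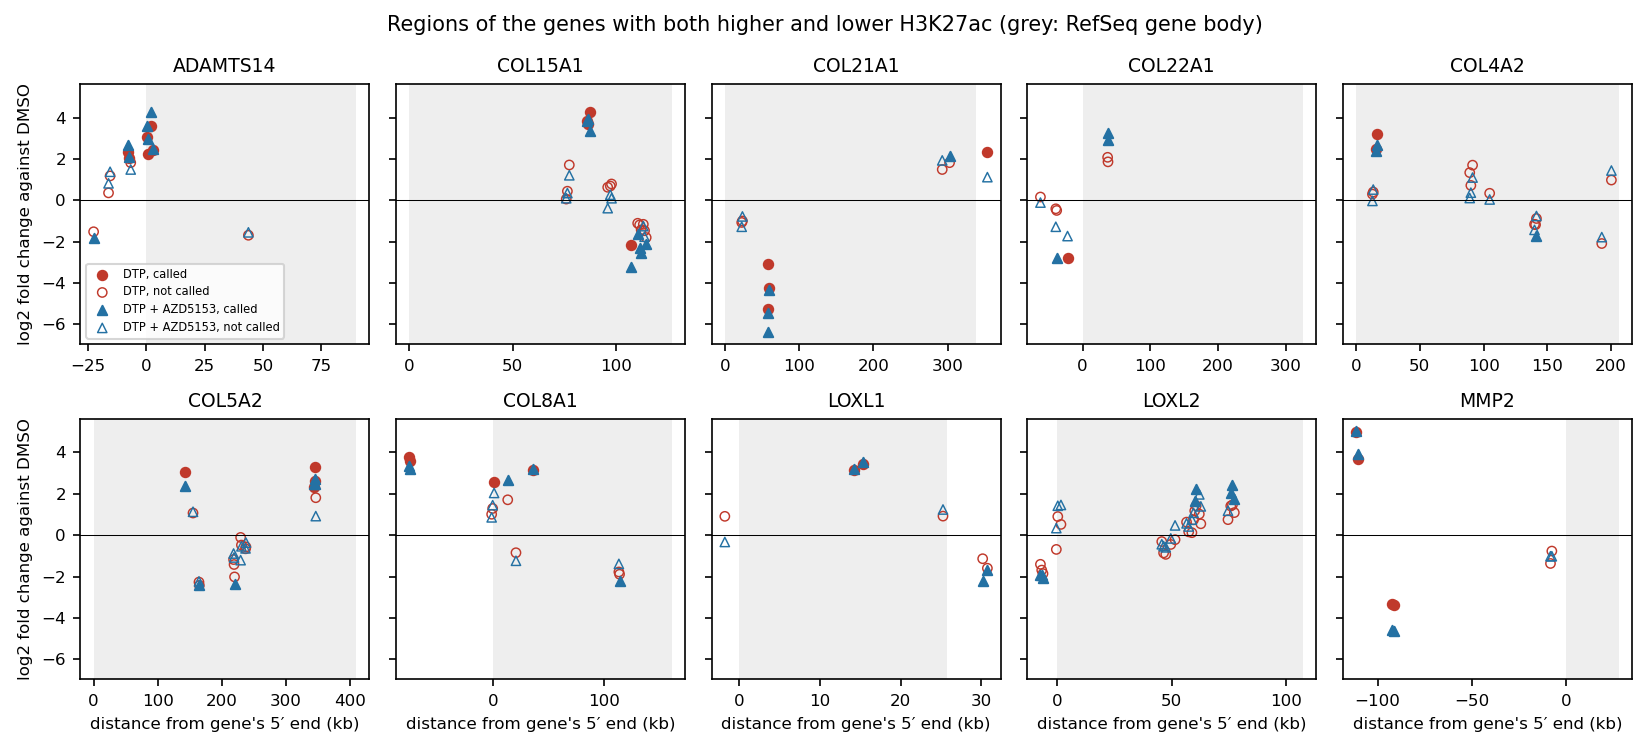
Log2 fold change against DMSO (vertical axis) of osimertinib DTP and of osimertinib DTP + AZD5153, in separate colours, for each region of the 10 genes with called regions in both directions in the AZD5153 group, by distance from the gene's RefSeq 5′ end in kb (horizontal axis, positive into the gene); filled points had an adjusted p under 0.05 and the grey band is the gene body. COL15A1 has a gain at 87.1 kb and a loss at 107.1 kb, and MMP2 has its gain at 111.4 kb and its loss at 91.3 kb upstream.

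Each library's own peak list gave the same regions a second readout. Members covered by a peak over at least 251 of their bases made up 55.5% to 68.8% in DMSO libraries, 73.7% to 80.3% in persister libraries and 62.7% to 81.6% in AZD5153 libraries. Among all annotated regions the share was 77.3% to 81.2%, and 59.2% in AZD5153 replicate 3. In 7 of the 9 libraries, all 6 of DMSO and persisters among them, the share of the members was below that of the annotated regions, by most in DMSO, while in AZD5153 replicates 1 and 3 the member share was the larger.

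The enzymes that modify and fold collagen, taken from a list of related genes, held calls mainly in 1 gene, P3H2. Their 115 regions in 16 genes had 1 higher and 14 lower in persisters and 7 higher and 21 lower in the AZD5153 group, with medians of 0.29 and 0.30. Over all regions the shares are 5.58% and 5.13%, then 9.05% and 9.01%. Most losses sat in P3H2, a prolyl 3-hydroxylase of basement membrane collagen, with 10 and 15 of its 49 regions lower, and 0 and 2 higher, the furthest by 3.26 ± 0.65 (adjusted p = 0.00689) and 5.49 ± 0.94 (adjusted p = 0.0018). Among the others, PCOLCE2, which enhances C-propeptide removal, had 2 and then 3 of 4 regions lower. P4HA2, a prolyl 4-hydroxylase subunit needed for a stable triple helix, had 1 and then 2 of 3 regions higher, the furthest by 1.98 ± 0.57 (adjusted p = 0.0326) and 2.64 ± 0.58 (adjusted p = 0.00585). The collagen chaperone SERPINH1 had 1 region higher in the AZD5153 group, by 2.01 ± 0.60 (adjusted p = 0.0271). Of 13 regions of the collagen receptors DDR2 and MRC2 and the protease inhibitor RECK, 0 were called in persisters and 1, near DDR2, was lower in the AZD5153 group (-1.97 ± 0.61, adjusted p = 0.0324).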

How the data were processed

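H3K27ac ChIP-seq libraries of H1975 cells and 1 input library were used. The authors deposited read counts for regions of 502 bp, not normalized, and a second table of the same counts with gene annotation; the submitters' processing notes name hg38, BWA 0.7.17, MACS2 2.2.6, featureCounts 2.0.0 and ChIPseeker 1.29.1. The deposited peak lists, called per library, give fold enrichment as a ratio and p and q as −log10 values; only the peak positions entered the text. How duplicate reads were treated is not given in the sources used here.

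Counts were tested with edgeR 4.0.16 in R 4.3.3 (limma 3.58.1) by the quasi-likelihood test, over all 9 H3K27ac libraries, after filterByExpr with a minimum count of 10, which left 157919 of 169637 regions, and TMM scaling. P-values were adjusted by Benjamini-Hochberg over all regions tested and called under 0.05. The script was tested on simulated data. Levels are CPM on TMM-adjusted library sizes. Errors are approximate standard errors, taken as the absolute log2 fold change divided by the square root of the test's F value. Total counts set the precision, and intervals of the fit do not cover read duplicates.

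Groups were taken from sample titles. The members, gene lists and tests were chosen with earlier results of these data known. Named regions were, per comparison with DMSO, family and direction, the up to 5 genes with the largest called change at a mean of at least 1 CPM in the higher group; the strongest promoter and distal region of a fixed list of genes; and the 5 members with the smallest p between both persister groups. Further regions of these genes were named after their values were seen. Same-numbered DMSO and persister replicates deviated together (correlations of 0.334, 0.355 and 0.324), so a replicate block was fitted too; for the AZD5153 group the correlations with DMSO were -0.0184, 0.553 and 0.362, and with persisters 0.243, 0.0262 and -0.24. Sequences, starts and distances came from RefSeq tables of GRCh38.p14. DESeq2 1.42.0, other scalings, filters, thresholds and leave-one-out fits were alternatives.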

Additional observations from a re-analysis of the deposited data

How the results depend on the processing

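At an adjusted p under 0.01, 23 members were higher and 6 lower in persisters against DMSO, and 58 and 21 in the AZD5153 group. DESeq2 gave 52 lower members in persisters, and 1 higher member between both persister groups (MMP12, 36.8 kb upstream). With only the libraries of both groups in the fit, 120 were higher and 61 lower in persisters, and 32 lower in the AZD5153 group. Leaving out 1 library at a time, the higher members ranged from 9 to 120 and the lower from 1 to 68 in persisters, and from 43 to 136 and 19 to 72 in the AZD5153 group, while between both persister groups they stayed at 0. Each of these fits holds fewer libraries than the main one, and the cause of the shifts was not tested. With the replicate block, 57 were higher and 30 lower in persisters, 94 and 56 in the AZD5153 group, and 0 and 0 between both. Of the calls named by rule it ended only those of ADAMTS9 in persisters and COL1A2 in the AZD5153 group, both given above. The median log2 change of all regions in persisters was 0.15 with TMM, 0.03 with DESeq2-type size factors, 0.06 without TMM and 0.10 with a loess offset, and in the AZD5153 group 0.23, 0.26, -0.02 and 0.35, beside member medians that remained above these in each. With promoters taken to 3 kb, MMPs had 2 lower promoter regions in each comparison with DMSO instead of 0, and TIMPs 3 higher ones instead of 1 and 0. Of 32 named calls in persisters 7 were kept in every leave-one-out fit and 17 in all 9 other settings, and of 44 in the AZD5153 group 26 and 30; none reversed. Depth limits the weakest members: some held under 10 counts in a whole group.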

Other observations

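Type VI and type IV collagen genes held regions that fell beside the gains described above. The region 19.1 kb upstream of COL6A3, a chain of the beaded filaments around cells, read 28.4, 32 and 20.3 CPM in DMSO, 5.5, 7.3 and 4.29 in persisters, and 5.46, 3.69 and 7.47 in the AZD5153 group. It changed by -2.24 ± 0.55 on the log2 scale in persisters (adjusted p = 0.016) and by -2.29 ± 0.55 in the AZD5153 group (adjusted p = 0.00958). COL4A6, a basement membrane chain on the X chromosome, changed by -2.62 ± 0.67 (adjusted p = 0.0207) and -2.24 ± 0.66 (adjusted p = 0.0261) at a region 41.6 kb in. The region 37.5 kb upstream of COL6A2 changed by -1.63 (adjusted p = 0.0658) and -2.12 ± 0.57 (adjusted p = 0.0166; 0.0947 without DMSO replicate 2). At the promoter of COL6A1 the changes were 0.81 (adjusted p = 0.549) and 0.57 (adjusted p = 0.646), the latter -0.69 without AZD5153 replicate 3. The strongest distal region of MMP7, the matrilysin of epithelial cells, changed by 0.67 (adjusted p = 0.545) and 0.54 (adjusted p = 0.588). MMP20, known from tooth enamel, had a region 26.5 kb in that was not called in persisters (adjusted p = 0.23) and changed by -2.13 ± 0.53 in the AZD5153 group (adjusted p = 0.0117; 0.0651 without DMSO replicate 2).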
